A study of Mus musculus with 24 samples.

Results

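The genes described here are receptor tyrosine kinases and the growth factors and co-factors around them, measured by RNA sequencing in a mouse breast cancer line. They are the receptors Met, Fgfr1, Fgfr2, Egfr, Erbb2 and Erbb3, the MET co-factor Macc1, the FGF-binding protein Fgfbp1, and the EGFR ligands Areg and Ereg. The 10 genes were chosen by their symbols from a table of 23478 symbols, with earlier results on these same libraries known. Their own levels, fold changes and calls are therefore descriptions, and no p-value is given for any of them. All 10 were in the table, and 9 passed the filter on low counts. Erbb3 did not pass.

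All 24 libraries came from 4T1-T cells, a subline of the mouse mammary carcinoma line 4T1. Every library came from cells that had been infected with an shRNA, recovered from a primary tumor or from lung metastases, and put under 6-thioguanine (6TG) selection. The culture medium was DMEM, supplemented with non-essential amino acids. The hairpins were shAsns-1 and shAsns-2, both against the asparagine synthetase gene Asns, and the control shRenilla. The 6 groups were Tumor shRenilla, Tumor shAsns-1, Tumor shAsns-2, Lung shRenilla, Lung shAsns-1 and Lung shAsns-2, each with 4 libraries that carry the letters A to D. The mouse strain, the age of the mice and the number of clones or animals behind a group are not given in the sources used here. Nothing says that the 4 libraries of a group came from separate mice or cultures, so every p-value measures the spread between these libraries, which may be technical. The cells had grown in culture after isolation, so a level is that of cultured cells and not of the tumor or the lung itself.

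Receptor tyrosine kinases are single-pass membrane proteins that dimerise when a growth factor binds outside the cell and then phosphorylate each other inside it. Adaptors read those phosphotyrosines and pass the signal to RAS, the kinase ERK and PI3-kinase, and ERK in turn induces transcription factors and its own inhibitors. MET is the receptor for hepatocyte growth factor, and MACC1 is a protein first described as a regulator of MET transcription that has been linked to metastasis of carcinomas. FGFBP1 is secreted and releases fibroblast growth factors from the extracellular matrix. Amphiregulin and epiregulin, the products of Areg and Ereg, are made as membrane precursors and are cut free by ADAM proteases before they bind EGFR.

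Asns went against its label in the libraries labelled shAsns-1. It was higher there than in shRenilla by 1.04 ± 0.16 on the log2 scale in tumor-derived cells (± SE, edgeR adjusted p = 1.47e-05) and by 1.61 ± 0.16 in lung-derived cells (adjusted p = 2.62e-06). With shAsns-2 it was lower in tumor-derived cells (-1.18 ± 0.16, adjusted p = 0.00122) and was not called in lung-derived cells (-0.51 ± 0.16, adjusted p = 0.405). Directions below are therefore differences between labels, and a hairpin is named only as the label of its libraries.

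Libraries held 8480908 to 38049196 counts in all, with a median of 28716454, and the lowest was Tumor shAsns-2 A. The carcinoma origin was checked with 9 epithelial markers, all detected in every library. Their summed level was 796 to 956 CPM, counts scaled to the effective library size, in Tumor shRenilla and 963 to 1112 CPM in Tumor shAsns-2. It was 460.0 to 622 CPM in Tumor shAsns-1, 435 to 609 CPM in Lung shRenilla, 428 to 485 CPM in Lung shAsns-1 and 392 to 796 CPM in Lung shAsns-2. Lung shRenilla B (435 CPM, the other 3 at 598 to 609 CPM) and Lung shAsns-2 D (392 CPM, the other 3 at 650.0 to 796 CPM) stood apart from their groups. Summed lymphocyte markers reached 0.267 CPM, endothelial markers 1.39 CPM and alveolar markers 0.381 CPM in any library. Macrophage markers summed to 10.2 to 15.3 CPM in tumor-derived and 14.1 to 22.4 CPM in lung-derived libraries. Neutrophil markers summed to 2.27 to 4.82 CPM and 4.61 to 11.9 CPM, with the neutrophil genes S100a9 and Csf3r at or near 0. Of the 2 neutrophil markers tested, edgeR called 1 higher and 0 lower in lung-derived than in tumor-derived cells with each hairpin. Fibroblast markers, mostly Pdgfra, summed to 17.5 to 32.4 CPM and 24.1 to 70.2 CPM, with the highest sum in Lung shAsns-1 D. All 3 sums thus leaned higher in lung-derived libraries, and their part in the higher lung levels of Fgfr1, Fgfr2, Areg and Ereg was not tested.

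Upstream sequences are shown for Macc1 and Fgfbp1, which differed most between hairpins in tumor-derived cells, and for Areg, the most abundant ligand among the 10 genes. RefSeq sequences from the assembly GRCm38.p6 were matched for 7 of the 10 genes, and Fgfr1, Erbb3 and Ereg were not matched. Each line gives the 250 bases before the RefSeq start in the direction of the gene. Capitals mark the motifs CANNTG, the E-box core, and TGANTCA, the AP-1 core, on either strand.
Macc1 (chr12:119443160-119443409, plus strand): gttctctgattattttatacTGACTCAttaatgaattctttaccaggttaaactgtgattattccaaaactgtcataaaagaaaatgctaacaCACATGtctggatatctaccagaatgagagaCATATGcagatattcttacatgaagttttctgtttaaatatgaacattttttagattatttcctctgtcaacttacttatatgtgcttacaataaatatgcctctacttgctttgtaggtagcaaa
Fgfbp1 (chr5:43981800-43982049, minus strand): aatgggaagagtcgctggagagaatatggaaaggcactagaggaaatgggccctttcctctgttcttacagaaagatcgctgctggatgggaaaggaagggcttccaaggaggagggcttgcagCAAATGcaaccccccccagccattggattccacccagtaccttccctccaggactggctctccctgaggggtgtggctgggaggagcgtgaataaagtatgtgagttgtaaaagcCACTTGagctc
Areg (chr5:91139349-91139598, plus strand): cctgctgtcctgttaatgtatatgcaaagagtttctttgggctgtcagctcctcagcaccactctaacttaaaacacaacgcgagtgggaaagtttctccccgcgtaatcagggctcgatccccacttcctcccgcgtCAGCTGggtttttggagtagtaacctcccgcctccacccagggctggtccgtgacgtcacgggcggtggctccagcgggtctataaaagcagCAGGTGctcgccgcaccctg

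The Macc1 window was AT-rich, with a GC content of 32.3% over the 300 bases from -250 to +50, while that of Fgfbp1 was 53.3% and that of Areg 59.3%. It lay within the GENCODE gene, which starts upstream of it. Macc1 held a TGANTCA match at -230 and CANNTG matches at -157 and -126, as the first base of the match counted from the RefSeq start. CANNTG matches of Fgfbp1 were at -126 and -11, and those of Areg at -112 and -20. The E-box core was found in 6 of the 7 windows and in 72.3% of 32851 RefSeq promoter windows of the same length. The AP-1 core was in 2 of 7 (Macc1 and Met) and in 7.81% of all.

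A narrower E-box, CACCTG, which is one of the sequences the E-box core allows, was searched on both strands as well. It was in 2 of 7 windows (Met and Areg, in Areg at -20) and in 20.2% of all promoter windows. The SP1 motif GGGCGG was in 3 of 7 (Met, Egfr and Areg) and in 35.7% of all. These are letter matches in a fixed window and say nothing of binding.

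Macc1 and Fgfbp1 were high in tumor-derived cells with shRenilla or shAsns-2 and low in the 4 other groups. Met was abundant everywhere and varied less than Macc1 and Fgfbp1. Fgfr1, Fgfr2 and both EGFR ligands had higher mean levels in lung-derived cells than in tumor-derived cells of the same hairpin. Egfr and Erbb2 stayed at a few CPM, and Erbb3 was at the limit of detection. In bulk libraries like these, fewer cells of a type and less RNA per cell cannot be told apart.

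Macc1 lies on chromosome 12 (GENCODE M21, GRCm38, chr12:119314270-119469987, plus strand). In Tumor shRenilla its levels were 88.5, 95.8, 119 and 97.1 CPM in libraries A to D (median 96.4, SD 13.0), and in Tumor shAsns-2 they were 81.7, 113, 79.3 and 95.3 CPM (mean 92.2 ± 15.3 SD). Tumor shAsns-1 gave 9.04, 12.0, 11.1 and 9.13 CPM (10.3 ± 1.46). The lowest library of the first 2 groups was thus several times the highest library of Tumor shAsns-1. Lung shRenilla gave 9.92, 12.0, 9.60 and 9.39 CPM (10.2 ± 1.20) and Lung shAsns-2 13.5, 15.5, 13.1 and 12.0 CPM (13.5 ± 1.46). Lung shAsns-1 was the lowest group, with 4.38, 8.06, 4.55 and 4.83 CPM (5.45 ± 1.75), and its library B stood above the other 3. In the order of the group means, Tumor shRenilla and Tumor shAsns-2 overlapped, as did Tumor shAsns-1 and Lung shRenilla, and the other neighbours did not overlap.

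On the fitted log2 scale, Macc1 in Tumor shAsns-1 was below Tumor shRenilla by -3.28 ± 0.17 and below Tumor shAsns-2 by -3.17 ± 0.17. Lung shRenilla was below Tumor shRenilla by a similar amount (-3.29 ± 0.17), Lung shAsns-2 was below Tumor shAsns-2 by -2.77 ± 0.16, and Lung shAsns-1 was below Tumor shAsns-1 by -0.92 ± 0.17. Within lung-derived cells Lung shAsns-1 was below Lung shRenilla by -0.91 ± 0.17 and below Lung shAsns-2 by -1.32 ± 0.17. With Lung shRenilla B and D of Lung shAsns-2 left out, the lung minus tumor differences were -3.38 for shRenilla and -2.72 for shAsns-2. The summed epithelial markers given above were also lower in the groups with low Macc1. In Tumor shAsns-1 against Tumor shRenilla, 7 of the 9 markers were called lower and 0 higher, beside 17.7% of all genes lower. Their median log2 difference was -2.035. In Lung shRenilla against Tumor shRenilla, 6 were called lower and 0 higher, with a median of -1.913, beside 9.82% lower. The part of these markers in the Macc1 differences was not tested.

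Met, the receptor whose transcription MACC1 is known to regulate, lies at chr6:17463800-17573980 on the plus strand. Its levels were 348, 317, 348 and 299 CPM in Tumor shRenilla (328 ± 24.1), 269, 286, 247 and 279 CPM in Tumor shAsns-1 (270.4 ± 17.0) and 381, 426, 331 and 359 CPM in Tumor shAsns-2 (374 ± 40.0). The 4 libraries of Tumor shAsns-1 were below all libraries of the other tumor groups. Lung shRenilla gave 256, 444, 228 and 228 CPM (289 ± 104), in which library B was far above the other 3. Lung shAsns-1 gave 219, 233, 214 and 213 CPM (219.7 ± 9.15) and Lung shAsns-2 219, 215, 233 and 253 CPM (230.0 ± 17.0). Each neighbouring pair in the order of the group means overlapped.

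The Met differences were small beside those of Macc1. Tumor shAsns-1 was below Tumor shRenilla by -0.28 ± 0.15 and below Tumor shAsns-2 by -0.47 ± 0.15, and Lung shAsns-2 was below Tumor shAsns-2 by -0.70 ± 0.15. For shRenilla the lung minus tumor difference of Met was -0.18 ± 0.15, and it was -0.45 without Lung shRenilla B. Per kilobase of exon, Met had 28.6 to 48.7 CPM and Macc1 0.649 to 11.9 CPM over the group means.

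Fgfbp1 lies at chr5:43978858-43981779 on the minus strand. Its levels ran from 1.02 to 187 CPM over the 24 libraries. Tumor shAsns-2 gave 125, 187, 137 and 115 CPM (141.0 ± 31.9) and Tumor shRenilla 95.4, 68.3, 67.1 and 76.6 CPM (76.8 ± 13.1), without overlap. Tumor shAsns-1 gave 5.76, 11.5, 6.26 and 3.36 CPM (6.72 ± 3.44), all below the tumor groups with the other hairpins. Lung shRenilla gave 3.30, 2.73, 2.72 and 3.90 CPM (3.16 ± 0.563), Lung shAsns-2 2.85, 4.52, 4.26 and 3.02 CPM (3.66 ± 0.850) and Lung shAsns-1 1.83, 1.09, 1.02 and 1.43 CPM (1.34 ± 0.371). Lung shAsns-1 was again the lowest group and did not overlap with Lung shRenilla.

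Fgfbp1 in Tumor shAsns-1 was below Tumor shRenilla by -3.53 ± 0.25 and below Tumor shAsns-2 by -4.41 ± 0.26 on the log2 scale. Lung minus tumor was -4.60 ± 0.27 with shRenilla, -5.26 ± 0.27 with shAsns-2 and -2.33 ± 0.29 with shAsns-1. With both libraries that stood apart left out, the shRenilla and shAsns-2 values were -4.53 and -5.19. Tumor shAsns-2 was above Tumor shRenilla by 0.88 ± 0.22, the direction opposite to that of Tumor shAsns-1. As for Macc1, epithelial markers were lower in the groups with low Fgfbp1, and their part was not tested.

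**Figure D1:**
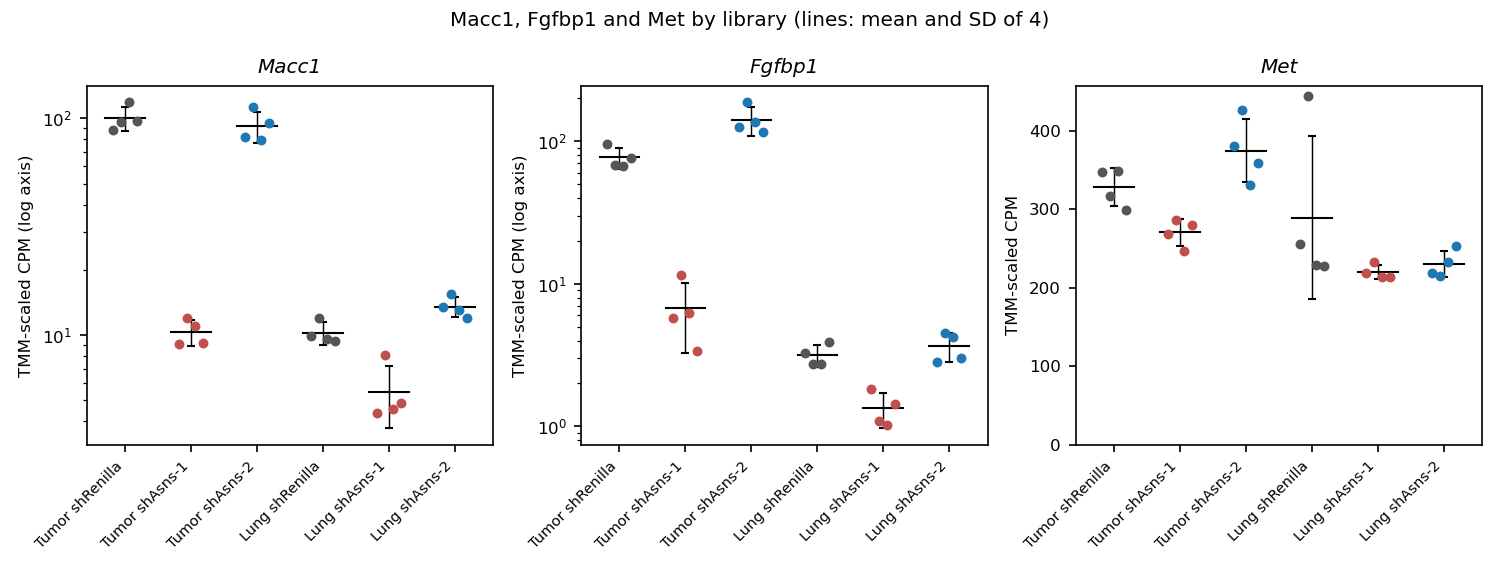
Levels of Macc1, Fgfbp1 and Met in each of the 24 libraries, in TMM-scaled CPM, on a log axis for Macc1 and Fgfbp1 and a linear axis for Met. Points are libraries, and lines give the mean and SD of 4. Macc1 lies at 79.3 to 119 CPM in Tumor shRenilla and Tumor shAsns-2 and at 4.38 to 15.5 CPM elsewhere, while Met spans 213 to 444 CPM.

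Fgfr1 and Fgfr2 encode receptors for fibroblast growth factors. Fgfr1 (chr8:25513654-25575718, plus strand) was at 3.38, 3.31, 4.81 and 2.03 CPM in Tumor shRenilla (3.38 ± 1.13), at 3.05, 3.04, 4.45 and 3.53 CPM in Tumor shAsns-1 (3.52 ± 0.663) and at 2.39, 3.24, 2.81 and 5.62 CPM in Tumor shAsns-2 (3.51 ± 1.44). These 3 groups overlapped fully. Lung shRenilla gave 6.40, 8.79, 5.16 and 6.94 CPM (6.82 ± 1.51), Lung shAsns-2 6.56, 6.13, 5.73 and 6.82 CPM (6.31 ± 0.481) and Lung shAsns-1 10.5, 8.76, 9.04 and 11.1 CPM (9.84 ± 1.12). Every lung library was above every tumor library except Tumor shAsns-2 D, at 5.62 CPM, which was above Lung shRenilla C, at 5.16 CPM. Lung minus tumor was 1.01 ± 0.22 with shRenilla, 1.47 ± 0.22 with shAsns-1 and 0.82 ± 0.23 with shAsns-2 on the log2 scale. Counts of Fgfr1 were between 20 and 338 per library, with the lowest in the shallow library Tumor shAsns-2 A.

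Fgfr2 (chr7:130162451-133123350, minus strand) spread more within groups. Its levels were 4.75 to 5.85 CPM in Tumor shRenilla (5.28 ± 0.460), 3.12 to 6.76 CPM in Tumor shAsns-1 (4.48 ± 1.67) and 3.19 to 9.08 CPM in Tumor shAsns-2 (5.69 ± 2.46). In lung-derived cells they were 3.66 to 11.7 CPM with shRenilla (8.00 ± 3.45), 6.78 to 10.8 CPM with shAsns-1 (8.91 ± 1.99) and 7.21 to 13.0 CPM with shAsns-2 (10.1 ± 2.47). Neighbours in this order overlapped at each step. Lung minus tumor was 0.59 ± 0.29, 0.98 ± 0.29 and 0.89 ± 0.30 for shRenilla, shAsns-1 and shAsns-2. The shRenilla value was 0.85 without Lung shRenilla B, the library with the lowest Fgfr2 of its group. The annotated exons of Fgfr2 share 314 bases with Ctbp2 on the same strand, so its counts are uncertain to that extent. Per kilobase of exon, the mean log2 ratio of Fgfr1 to Fgfr2 lay between -0.64 ± 0.55 in Tumor shRenilla and 0.23 ± 0.37 in Lung shAsns-1, with wide spreads in between.

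Egfr (chr11:16752203-16918158, plus strand), the receptor of Areg and Ereg, was at 2.82, 3.39, 4.14 and 2.84 CPM in Tumor shRenilla (3.30 ± 0.621) and at 2.87, 2.72, 3.29 and 4.05 CPM in Tumor shAsns-2 (3.23 ± 0.597). Tumor shAsns-1 gave 2.33, 2.27, 1.75 and 1.499 CPM (1.96 ± 0.404), below all 8 other tumor libraries. Lung-derived cells gave 1.65 to 3.59 CPM with shRenilla (2.55 ± 0.886), 1.87 to 2.93 CPM with shAsns-1 (2.47 ± 0.447) and 1.74 to 2.59 CPM with shAsns-2 (2.10 ± 0.376), which overlapped. Tumor shAsns-1 was below Tumor shRenilla by -0.76 ± 0.22 and below Tumor shAsns-2 by -0.73 ± 0.23, and Lung shAsns-2 was below Tumor shAsns-2 by -0.63 ± 0.22. These levels rested on 24 to 124 counts per library.

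Erbb2 (chr11:98412470-98437716, plus strand), the family member that signals as a partner of the others without a ligand of its own, was at 4.07 to 8.41 CPM in 23 libraries. In Tumor shAsns-2 D it was at 13.1 CPM, where the other 3 libraries of the group were at 7.17, 6.56 and 7.42 CPM. Group means ran from 5.33 ± 1.00 CPM in Lung shAsns-2 to 8.56 ± 3.05 CPM in Tumor shAsns-2, and neighbouring groups overlapped. Lung shAsns-2 was below Tumor shAsns-2 by -0.69 ± 0.21, and by -0.40 without Tumor shAsns-2 D. Tumor shAsns-1 was below Tumor shAsns-2 by -0.64 ± 0.21, and by -0.35 without that library. Per kilobase of exon, the mean log2 ratio of Erbb2 to Egfr was between 2.08 ± 0.24 in Tumor shRenilla and 2.63 ± 0.31 in Tumor shAsns-1.

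Erbb3 (chr10:128567523-128589652, minus strand), a receptor for neuregulins with a weak kinase, had 0 to 10 counts per tumor library and 0 to 3 counts per lung library. Its highest count was 10, in Tumor shAsns-2 B, and 3 of 24 libraries had 0 counts, which allows up to 3 counts by counting error alone. It did not pass the filter and was not tested in the main fit.

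The EGFR ligand Areg (chr5:91139599-91148432, plus strand) was at 94.4, 63.0, 77.0 and 64.4 CPM in Tumor shRenilla (74.7 ± 14.6), at 94.5, 48.1, 76.1 and 68.2 CPM in Tumor shAsns-1 (71.7 ± 19.2) and at 79.6, 59.5, 63.1 and 87.3 CPM in Tumor shAsns-2 (72.4 ± 13.3). The 3 tumor groups overlapped. Lung shRenilla gave 133, 119.7, 125 and 115 CPM (123 ± 7.74), all above the 12 tumor libraries. Lung shAsns-1 gave 119, 87.5, 80.7 and 129 CPM (104 ± 23.7) and Lung shAsns-2 60.3, 68.4, 92.3 and 142 CPM (90.7 ± 36.6), the latter with a low pair and a high library D. Lung minus tumor was 0.72 ± 0.22 with shRenilla, 0.54 ± 0.22 with shAsns-1 and 0.33 ± 0.22 with shAsns-2. The last of these was 0.03 with both libraries that stood apart left out. Per kilobase of exon Areg was the most abundant of the 10 genes, at group means of 59.0 to 101 CPM, except that Fgfbp1 in Tumor shAsns-2 reached 62.3 CPM per kilobase beside 59.6 CPM per kilobase for Areg.

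Ereg (chr5:91074622-91093646, plus strand) is a neighbour of Areg, with 45952 bases between the annotated genes. It had 0 to 7 counts in each tumor library, or at most 0.245 CPM. Lung shRenilla gave 1.25, 2.28, 0.968 and 1.70 CPM (1.55 ± 0.572) and Lung shAsns-2 0.760, 0.743, 0.976 and 1.21 CPM (0.922 ± 0.218). Lung shAsns-1 gave 2.40, 1.21, 2.89 and 11.4 CPM (4.47 ± 4.67), and its library D held 295 of the 497 counts of the group. Every lung library was above every tumor library. Ereg passed the filter only through the lung groups, so it had to differ between sites, and its fitted fold change against so few tumor counts depends on the prior count.

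From the summed counts, the ratio of lung to tumor for Ereg was 13.8 with shRenilla (188 against 13 counts, 95% interval 7.87 to 26.4) and 10.7 with shAsns-2 (112 against 8 counts, 5.23 to 25.3). With shAsns-1 it was 107 (497 against 5 counts, 45.4 to 330.0), and without Lung shAsns-1 D it was 55.9 (202 against 5 counts, 23.6 to 174). The intervals cover counting error only and not the spread between libraries. By the filter Ereg had to differ between sites, so they are no test of that difference. In Lung shAsns-1 D the summed fibroblast markers were 70.2 CPM, against 34.3 to 35.6 CPM in the other 3 libraries of the group, and the 3 collagen genes among them summed to 18.4 CPM against 1.28 to 4.07 CPM. The part of these markers in the Ereg level was not tested. Without that library, Ereg in Lung shAsns-1 was above Lung shAsns-2 by 1.24 on the fitted log2 scale, in place of 2.27 ± 0.45 with it.

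**Figure D2:**
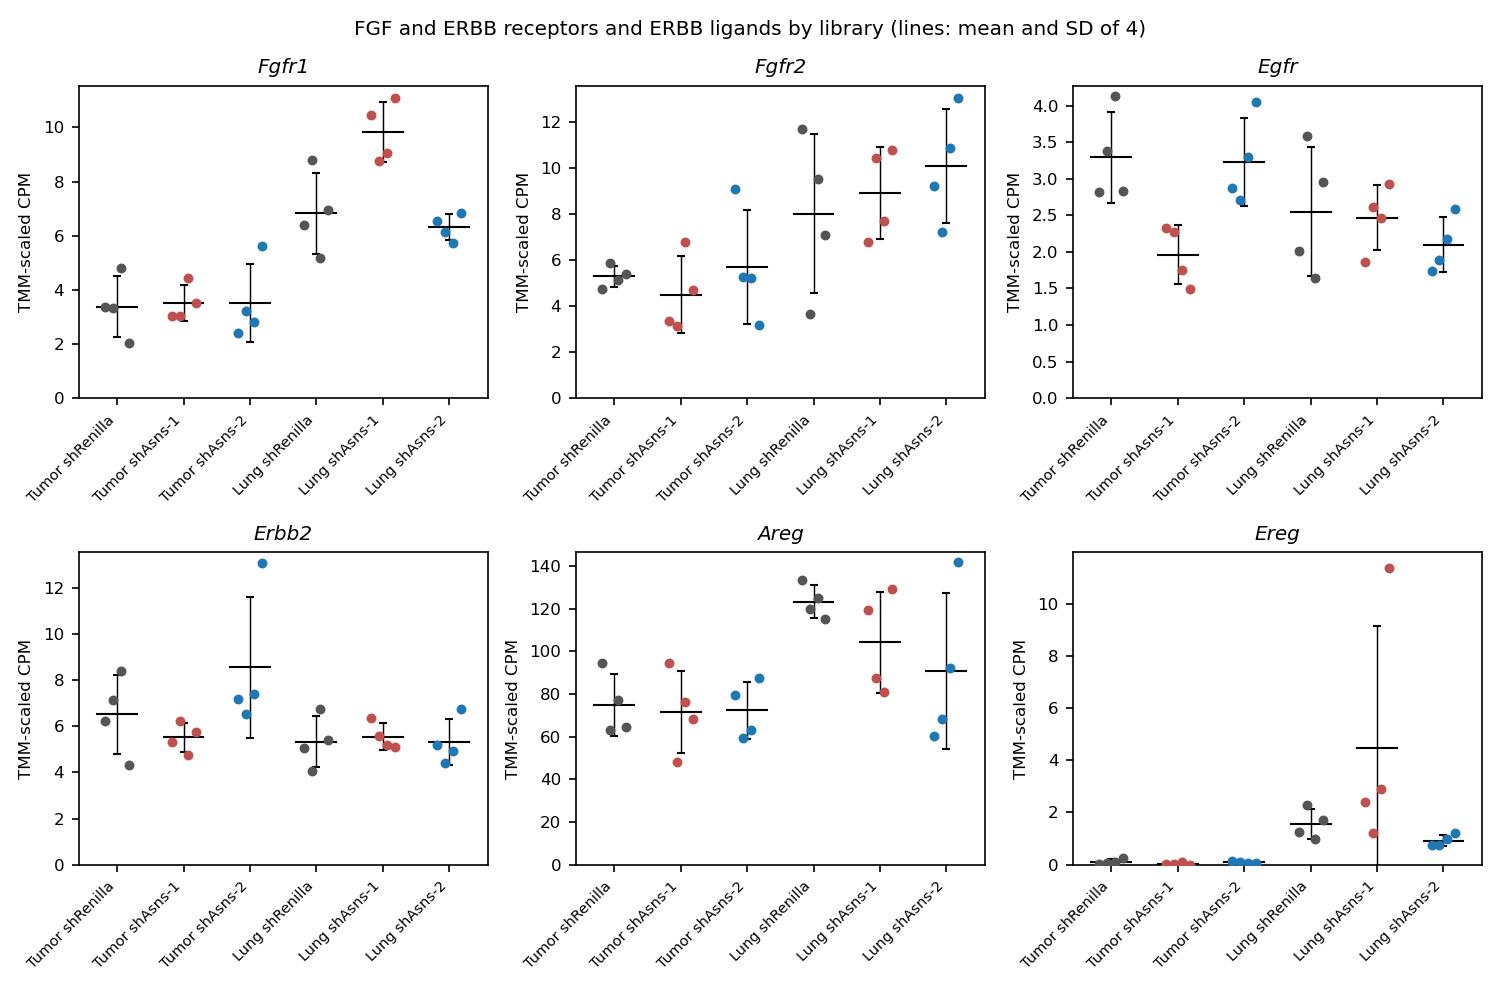
Levels of Fgfr1, Fgfr2, Egfr, Erbb2, Areg and Ereg in each of the 24 libraries, in TMM-scaled CPM on linear axes. Points are libraries, and lines give the mean and SD of 4. Fgfr1 lies at 2.03 to 5.62 CPM in tumor-derived and at 5.16 to 11.1 CPM in lung-derived libraries, and Ereg exceeds 3 CPM only in Lung shAsns-1 D, at 11.4 CPM.

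Calls of the 10 genes were counted in each comparison at a Benjamini-Hochberg adjusted p under 0.05 from edgeR over all 12625 genes tested, beside the percent of all genes called there. Since the genes were chosen with these values known, nothing is read from the counts. In Tumor shAsns-1 against Tumor shRenilla, 3 of the 9 tested genes were called lower (Macc1, Fgfbp1 and Egfr) and 0 higher. Of all genes, 17.7% were lower there and 16.2% higher. Met was called lower there as well with limma (-0.28) and with the other 4 groups left out of the fit (-0.27). It was also called without both libraries that stood apart (-0.28). For Tumor shAsns-1 against Tumor shAsns-2 the calls were 5 lower (Macc1, Fgfbp1, Egfr, Met and Erbb2) and 0 higher, beside 15.0% lower and 12.1% higher. The calls of Met, Egfr and Erbb2 were lost without Tumor shAsns-1 C (-0.42, -0.68 and -0.57). That of Met was also lost without Tumor shAsns-2 B, that of Egfr without Tumor shAsns-1 D or Tumor shAsns-2 D, and that of Erbb2 without Tumor shAsns-1 A or Tumor shAsns-2 D. Tumor shAsns-2 against Tumor shRenilla gave 0 calls beside 0.0396% higher and 0.0238% lower. In that comparison an unadjusted p under 0.05 was reached by 1 of the 9 genes, and DESeq2 and limma also called 0.

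In lung-derived cells, Lung shAsns-1 against Lung shRenilla gave 1 lower call (Macc1) beside 0.135% lower and 0.0713% higher. That call was lost without Lung shAsns-1 C (log2 difference -0.82), without Lung shAsns-1 D (-0.85) and when the other 4 groups were left out of the fit. For Lung shAsns-1 against Lung shAsns-2 there were 2 lower calls (Macc1 and Fgfbp1) and 1 higher (Ereg), beside 0.119% lower and 0.143% higher. The Fgfbp1 call was lost without B, C or D of Lung shAsns-1 or B or C of Lung shAsns-2, and the Ereg call without D of Lung shAsns-1 or A, B or C of Lung shAsns-2. Lung shAsns-2 against Lung shRenilla gave 0 calls beside 0% of all genes in each direction. An unadjusted p under 0.05 was reached there by 2 of the 9 genes. Limma called Macc1 and Areg, beside 1582 of all 12625 genes, and DESeq2 called 0.

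Between sites, Lung shRenilla against Tumor shRenilla gave 3 higher calls (Fgfr1, Areg and Ereg) and 2 lower (Macc1 and Fgfbp1), beside 12.0% higher and 9.82% lower. With both libraries that stood apart left out, Met (-0.47), Fgfr2 (0.83) and Egfr (-0.57) were called there as well, which made 8 of 9. The Areg call was lost without Tumor shRenilla B (0.64) or D (0.65). Lung shAsns-1 against Tumor shAsns-1 gave 3 higher (Fgfr1, Fgfr2 and Ereg) and 2 lower (Macc1 and Fgfbp1), beside 6.00% higher and 2.54% lower. Of all genes called there 70.3% were higher, and 49.9% were when the other 4 groups were left out of the fit. The Fgfr2 call was lost without A, B or D of Tumor shAsns-1 or B, C or D of Lung shAsns-1. Met and Areg were called there as well with limma and without both libraries that stood apart. Met was also called when the other 4 groups were left out of the fit. Lung shAsns-2 against Tumor shAsns-2 gave 3 higher (the same 3) and 5 lower (Macc1, Met, Fgfbp1, Egfr and Erbb2), beside 10.1% higher and 10.9% lower. There the Fgfr2 call was lost without B, C or D of Tumor shAsns-2 or A, C or D of Lung shAsns-2. The Egfr call was lost without A, C or D of Tumor shAsns-2 or A, B or C of Lung shAsns-2, and the Erbb2 call without D of Tumor shAsns-2 or A, B or C of Lung shAsns-2. Ereg is among the higher calls of each of these comparisons, and by the filter it had to differ between sites, so its call carries no weight. These comparisons share groups with those between hairpins, so the lists of calls are not independent of each other.

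The difference between sites was also fitted directly, as lung minus tumor of a hairpin difference. For shAsns-1 minus shRenilla it was 2.37 ± 0.23 for Macc1 and 2.27 ± 0.39 for Fgfbp1. These 2 of 9 genes were called beside 14.2% of all genes in either direction. Egfr was called there as well with limma (0.98), without both libraries that stood apart (0.92) and without Lung shRenilla B. Ereg was called there with DESeq2. For shAsns-1 minus shAsns-2 the difference between sites was 1.85 ± 0.23 for Macc1, 2.94 ± 0.39 for Fgfbp1 and 0.97 ± 0.32 for Egfr. These were 3 calls beside 11.6% of all genes. The Egfr call was lost with no filter, with DESeq2 size factors, and without C or D of Tumor shAsns-1, A, C or D of Tumor shAsns-2, B, C or D of Lung shAsns-1, or A, B or C of Lung shAsns-2. A positive value means that the difference of the libraries labelled shAsns-1 was more negative in tumor-derived than in lung-derived cells. For shAsns-2 minus shRenilla 0 genes were called beside 0% of all genes, although 2 of the 9 reached an unadjusted p under 0.05, and neither DESeq2 nor limma called any of the 9.

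**Figure D3:**
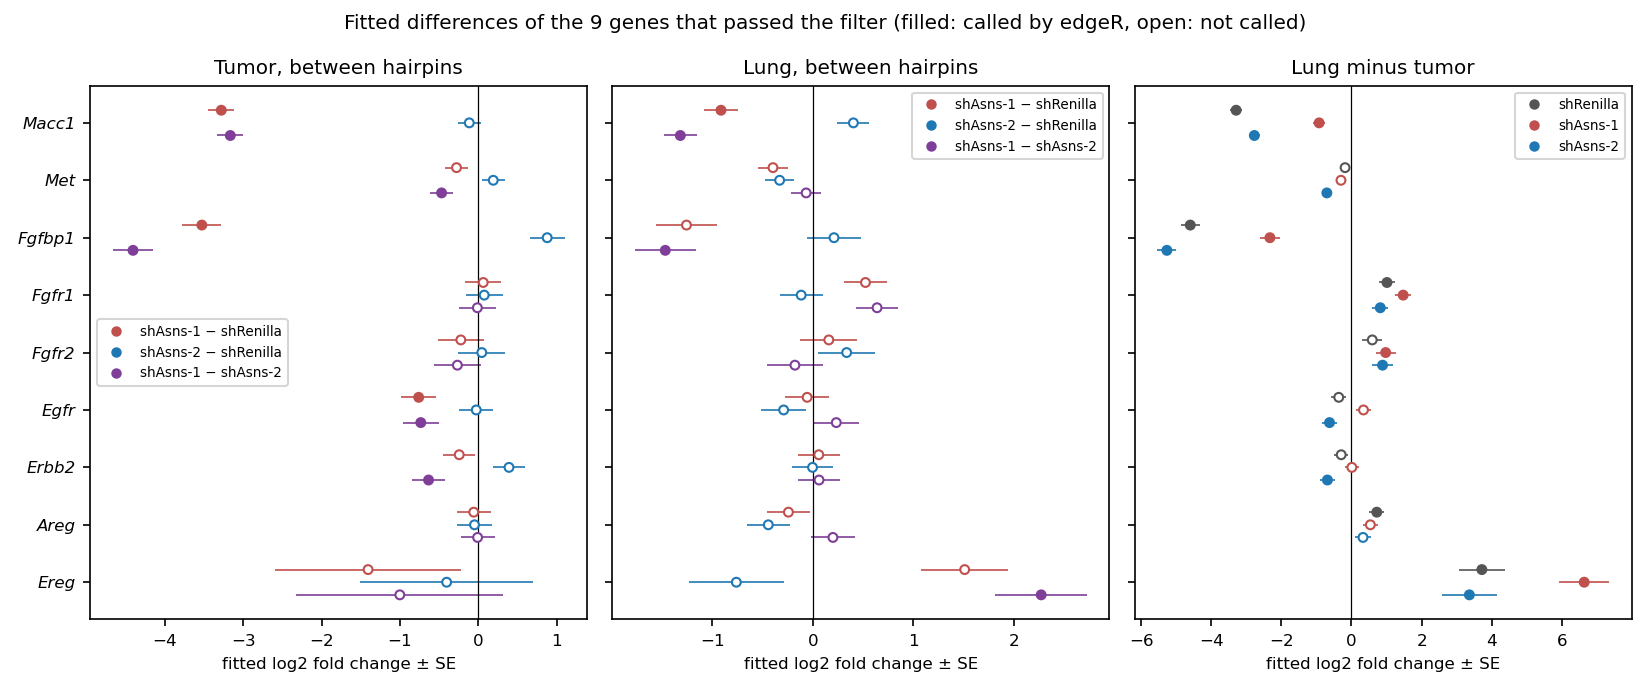
Fitted log2 fold changes of the 9 genes that passed the filter, with SE bars, between hairpins in tumor-derived cells, between hairpins in lung-derived cells, and between sites within a hairpin. Filled points were called by edgeR and open points were not, and Ereg values depend on the prior count. Macc1 and Fgfbp1 lie at -3.28 and -3.53 for Tumor shAsns-1 minus Tumor shRenilla. The point farthest to the left is Fgfbp1 at -5.26 for Lung shAsns-2 minus Tumor shAsns-2.

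Genes of the surrounding pathway were taken from 8 lists of ligands, proteases, receptors, relays, inhibitors and ERK-induced genes. The lists hold 113 distinct tested genes and none of the 10. They too were chosen with earlier results of these data known. Their counts and adjusted p-values are therefore descriptions of these libraries and not independent evidence about the pathway. Of the 113 genes, 27 were higher and 21 lower in Tumor shAsns-1 than in Tumor shRenilla, beside 16.2% of all genes higher and 17.7% lower. With shAsns-2, 0 of 113 were called against Tumor shRenilla, beside 0.0396% of all genes higher and 0.0238% lower. With so few calls among all genes, the count of 0 says little about these genes. Of the 113, 11 had an unadjusted p under 0.05 there, and DESeq2 and limma called 0.

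Among ligands of the ERBB family, 2 of 7 were higher and 3 lower in Tumor shAsns-1 than in Tumor shRenilla (median log2 difference -0.76, all genes -0.01). Tgfa, another EGFR ligand, was at 58.6 ± 5.47 CPM in Tumor shAsns-1 and 27.2 ± 4.30 CPM in Tumor shRenilla (1.11 ± 0.11, adjusted p = 1.66e-08). It was at 32.0 ± 2.61 CPM in Tumor shAsns-2 and at 52.3 ± 3.74, 55.4 ± 3.65 and 61.7 ± 6.05 CPM in lung-derived cells with shAsns-1, shAsns-2 and shRenilla. Tgfa was thus high in the 4 groups in which Macc1 was low. Nrg1, which binds ERBB3 and ERBB4, was lower (-0.91 ± 0.15, adjusted p = 5.61e-05), as were Hbegf, a heparin-binding EGFR ligand (-0.76 ± 0.15, adjusted p = 0.000316), and Epgn (-1.17 ± 0.22, adjusted p = 0.000236). The higher call of Btc (0.40 ± 0.15, adjusted p = 0.0428) was lost in 6 of 15 alternatives, among them without Tumor shAsns-1 A or C or Tumor shRenilla B, C or D, with an adjusted p of up to 0.107. Of 17 FGF ligands in the table only 4 passed the filter, with Fgf1 higher (0.79 ± 0.31, adjusted p = 0.0493) and Fgf9 lower (-1.95 ± 0.61, adjusted p = 0.0155) in Tumor shAsns-1, both under 1.1 CPM. The Fgf1 call was lost with DESeq2, limma or no filter and without A, B or D of Tumor shAsns-1 or any 1 library of Tumor shRenilla. The Fgf9 call was lost without Tumor shRenilla A and when the other 4 groups were left out of the fit.

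The ligand of MET, Hgf, reached at most 0.425 CPM in any library and was not tested. Of 5 tested genes of the list of MET ligands and their proteases, 3 were lower in Tumor shAsns-1 than in Tumor shRenilla and 0 higher (median -0.38). St14, which encodes matriptase, was at 3.45 ± 0.840 CPM in Tumor shAsns-1, 11.5 ± 2.89 CPM in Tumor shRenilla, 12.8 ± 4.65 CPM in Tumor shAsns-2 and 3.83 to 4.36 CPM as lung group means (Tumor shAsns-1 minus Tumor shRenilla -1.75 ± 0.22, adjusted p = 1.08e-06). Plau, the gene of urokinase, was lower (-1.47 ± 0.18, adjusted p = 6.02e-07). Spint2, which encodes a protease inhibitor, was lower by less (-0.38 ± 0.11, adjusted p = 0.0112). That call was lost without Tumor shAsns-1 D or Tumor shRenilla A (adjusted p of up to 0.0534).

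The list of ligand sheddases holds ADAM proteases and the inactive rhomboids Rhbdf1 and Rhbdf2, which are not sheddases themselves. Of its 9 genes, 5 were lower and 0 higher in Tumor shAsns-1 than in Tumor shRenilla (median -0.63). Adam12 was at 5.48 ± 0.903 CPM in Tumor shAsns-1 and at 39.6 ± 3.86 CPM in Tumor shRenilla (-2.86 ± 0.17, adjusted p = 3.36e-12). It was at 34.1 ± 2.06 CPM in Tumor shAsns-2 and at 6.69 ± 0.228, 7.46 ± 2.90 and 8.01 ± 0.622 CPM in lung-derived cells with shAsns-1, shAsns-2 and shRenilla. Like Macc1, it was high in 2 tumor groups and low in the other 4. Adam8 (-1.10 ± 0.21, adjusted p = 0.000196), Adam19 (-0.63 ± 0.16, adjusted p = 0.00271) and the inactive rhomboids Rhbdf1 (-0.84 ± 0.14, adjusted p = 5.92e-05) and Rhbdf2 (-0.73 ± 0.16, adjusted p = 0.00106), which escort the sheddase ADAM17, were also lower. Adam17 and Adam10, the main sheddases of EGFR ligands, were not called in this comparison.

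Of 18 ERK-induced genes, 8 were higher and 4 lower in Tumor shAsns-1 than in Tumor shRenilla (median 0.33, all genes -0.01), and without Tumor shAsns-1 B 5 were higher and 2 lower. The 4 with the largest differences were the transcription factor genes Etv5 (1.32 ± 0.14, adjusted p = 4.13e-08) and Egr1 (1.22 ± 0.19, adjusted p = 1.39e-05), the RAS pathway inhibitor Spred1 (1.21 ± 0.14, adjusted p = 2.21e-07) and the ERK phosphatase Dusp6 (1.20 ± 0.13, adjusted p = 5.12e-08). Dusp6 was at 334 ± 27.7 CPM in Tumor shAsns-1, 145 ± 8.56 CPM in Tumor shRenilla and 171 ± 25.0 CPM in Tumor shAsns-2. In lung-derived cells it was at 318 ± 26.0, 306 ± 20.8 and 363 ± 81.2 CPM with shAsns-1, shAsns-2 and shRenilla. The 4 lower genes were Phlda1 (-0.91), Myc (-0.71), Ier3 (-0.56) and Epha2 (-0.47), so the list did not move as a whole. The part of Met, Fgfr1, Egfr or their ligands in these levels was not tested.

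Receptor inhibitors had 7 of 21 genes higher and 0 lower in Tumor shAsns-1 than in Tumor shRenilla (median 0.23). Besides Spred1, which is in both lists, Socs3 (0.85 ± 0.17, adjusted p = 0.000439), the EGFR inhibitor Errfi1 (0.75 ± 0.13, adjusted p = 6.58e-05) and the RAS GTPase-activating protein Rasa1 (0.65 ± 0.14, adjusted p = 0.000662) led it. Of 30 adaptors and relay kinases, 6 were higher and 2 lower (median 0.18), with the kinase genes Mapk3 (0.83 ± 0.18, adjusted p = 0.000982) and Map2k1 (0.57 ± 0.10, adjusted p = 0.000111) and the adaptor Gab1 (0.72 ± 0.16, adjusted p = 0.00088) higher. Limma called 13 of the 30 higher, where it called 5889 of all 12625 genes in either direction. The ERBB2-binding adaptor Grb7 was lower (-0.63 ± 0.19, adjusted p = 0.0135), a call lost without Tumor shAsns-1 C or Tumor shRenilla B (adjusted p of up to 0.0583). Of 24 other receptor tyrosine kinases, 5 were higher and 4 lower (median 0.03). Tie1 (1.24 ± 0.25, adjusted p = 0.000348), Pdgfra (0.79 ± 0.15, adjusted p = 0.000287) and Ephb4 (0.63 ± 0.12, adjusted p = 0.000187) were higher, and the collagen receptor Ddr1 was lower (-0.92 ± 0.22, adjusted p = 0.00214). Pdgfra also stands on the fibroblast marker list.

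In Lung shRenilla against Tumor shRenilla, 22 of the 113 genes were higher and 12 lower, beside 12.0% and 9.82% of all genes. Dusp6 (1.32 ± 0.13, adjusted p = 1.04e-08), Tgfa (1.18 ± 0.11, adjusted p = 6.19e-09), Etv1 (1.08 ± 0.12, adjusted p = 1.94e-07), Etv5 (1.07 ± 0.14, adjusted p = 1.54e-06) and the EGFR ligand Btc (1.06 ± 0.15, adjusted p = 9.67e-06) were higher in lung-derived cells. Adam12 (-2.30 ± 0.17, adjusted p = 1.18e-10), St14 (-1.41 ± 0.22, adjusted p = 2.61e-05), Rhbdf1 (-0.91 ± 0.14, adjusted p = 3.07e-05) and Nrg1 (-0.90 ± 0.15, adjusted p = 8.45e-05) were lower. In the ERK-induced list 6 of 18 were higher and 2 lower, the latter Phlda1 (-1.03) and Myc (-0.80). This comparison shares Tumor shRenilla with the one above.

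For shAsns-2 between sites, 14 of the 113 genes were higher and 21 lower in lung-derived cells, beside 10.1% and 10.9% of all genes. Adam12 (-2.20 ± 0.17, adjusted p = 3.74e-10), St14 (-1.75 ± 0.22, adjusted p = 1.82e-06), Nrg1 (-1.13 ± 0.16, adjusted p = 6.91e-06) and Rhbdf1 (-1.07 ± 0.14, adjusted p = 3.98e-06) were lower, as was Adam17 (-0.48 ± 0.12, adjusted p = 0.00415), and Etv5 (0.94 ± 0.14, adjusted p = 1.29e-05), Dusp6 (0.84 ± 0.12, adjusted p = 1.91e-05) and Tgfa (0.79 ± 0.11, adjusted p = 5.48e-06) were higher. The receptor gene Axl, at 385 to 785 CPM over all libraries, was also lower (-0.60 ± 0.12, adjusted p = 0.000882). For shAsns-1 between sites edgeR called 7 of 113, all higher, beside 6.00% of all genes higher and 2.54% lower. Summed over the 8 lists, DESeq2 made 15 calls and limma 36, where limma called 4138 of all 12625 genes. Plau was among the 7 (0.92 ± 0.18, adjusted p = 0.00203) and kept its call in each of 15 alternatives. Fgf7, Stat3, Ier3 and Rnf41 lost theirs in 7, 8, 9 and 10 of the 15.

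Between hairpins in lung-derived cells, 1 of the 113 genes was called in Lung shAsns-1 against Lung shRenilla, beside 0.0713% of all genes higher and 0.135% lower. It was the cytokine signalling inhibitor Socs3 (0.95 ± 0.17, edgeR adjusted p = 0.00792). That call was lost without Lung shRenilla A and when the other 4 groups were left out of the fit, with an adjusted p of up to 0.306. For Lung shAsns-2 against Lung shRenilla and for Lung shAsns-1 against Lung shAsns-2 edgeR called 0, with 12 and 6 genes at an unadjusted p under 0.05. Of all genes, it called 0% in each direction in the former, and 0.143% higher and 0.119% lower in the latter. DESeq2 called 0 in both. Limma made 26 and 21 calls summed over the 8 lists, beside 1582 and 1921 of all 12625 genes.

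**Figure D4:**
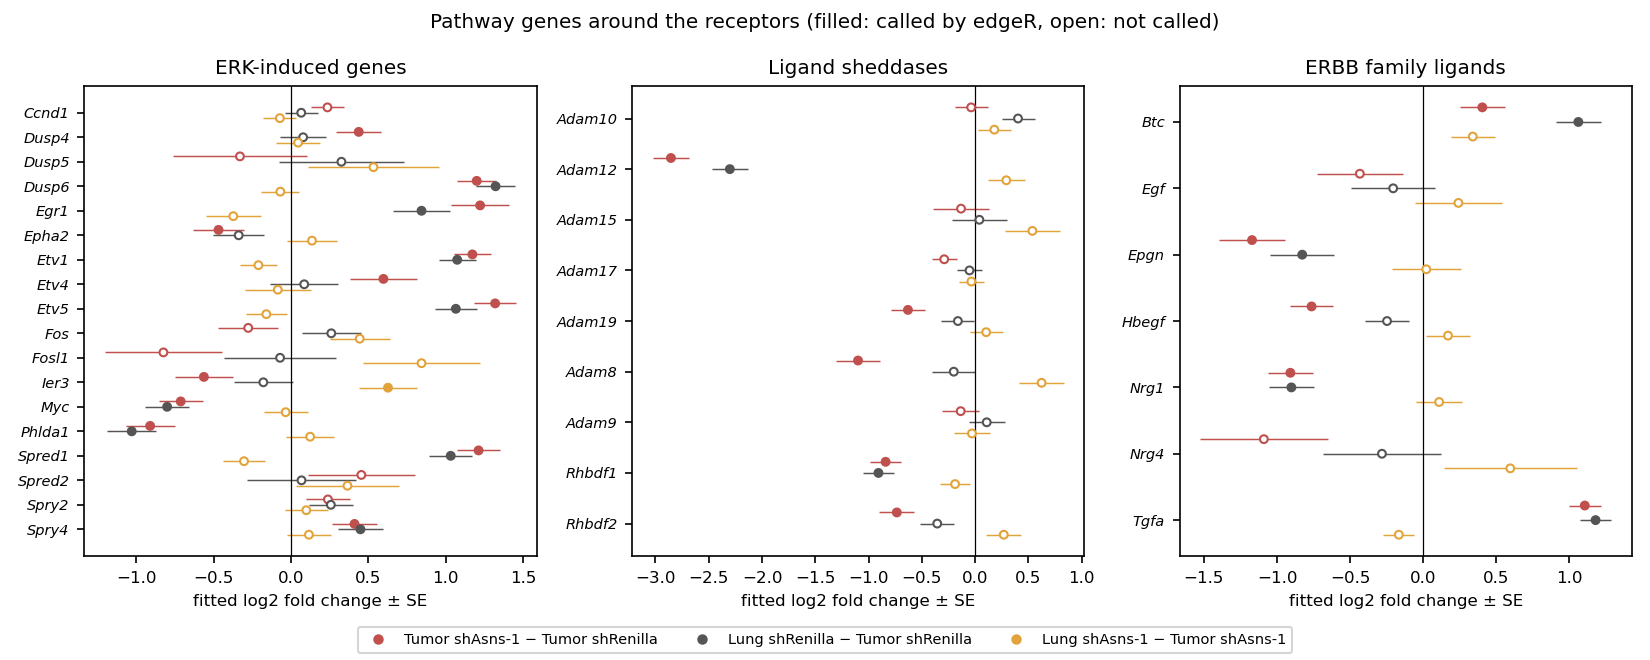
Fitted log2 fold changes with SE bars for the tested genes of the lists of ERK-induced genes, ligand sheddases and ERBB family ligands in 3 comparisons. Filled points were called by edgeR and open points were not. Adam12 lies at -2.86 and -2.30 in Tumor shAsns-1 and in Lung shRenilla, each minus Tumor shRenilla, and Dusp6 at 1.20 and 1.32 in the same comparisons.

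The genes most like each member over the 24 libraries were found by Pearson's r of log2 CPM among tested genes with a mean log2 CPM of at least 3. The libraries of a group share its level, so r describes these libraries and carries no test. Macc1 was nearest to Cdh1 (r = 0.99), the gene of E-cadherin, and to Mpzl2 and Serpinb5 (r = 0.98 for each). Fgfbp1 was close to Epcam (r = 0.98), an epithelial adhesion gene, and the keratin gene Krt7 (r = 0.97) was also among its nearest. Cdh1, Epcam and Krt7 are on the epithelial marker list given above. Met was nearest to Atp13a3, Slc12a2 and Col8a1 (r = 0.97 for each). Fgfr1 was nearest to Cdon (r = 0.93), Fgfr2 to Nap1l4 (r = 0.90), Erbb2 to Slc12a4 (r = 0.91) and Areg to Ctsh (r = 0.92). Egfr had the weakest likeness, to Amotl2 (r = 0.85). Ereg was nearest to Acpl2 (r = 0.90), Mmp13 and Ptgs1 (r = 0.89 for each).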

How the data were processed

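RNA of 24 samples of tumor- or lung-derived 4T1-T cells was extracted with Trizol and amplified with the NuGEN Ovation RNAseq V2 kit, per the labels' protocols. The deposited values were read counts per gene symbol, which the authors made with Bowtie2 and HTSeq on mm10, per the submitters' processing notes. Versions, annotation, strand setting and filters are not given in the sources used here. Groups were taken from the sample titles.

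Counts were fitted with edgeR 4.0.16 in R 4.3.3 (TMM scaling, filterByExpr with a minimum count of 10, robust quasi-likelihood test) with 1 mean per group over all 24 libraries. P-values were Benjamini-Hochberg adjusted over the 12625 genes tested, with a threshold of 0.05. The SE of an edgeR difference was taken as its absolute log2 value divided by the square root of the F statistic of its test. CPM are TMM-scaled, and log2 CPM used a prior count of 2. Differences between sites were fitted as interaction contrasts. Depth was 8480908 to 38049196 counts per library, so levels near 3 counts were not resolved. The fit was also run on counts simulated from its own dispersions. Those held no library that stood apart, so the run does not bear on such libraries.

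The 10 genes, the pathway lists and the marker lists were chosen with earlier results of these data known. In each comparison, up to 4 called genes per list with the largest differences were named if their mean log2 CPM reached 1, and further genes where a count of 5 or fewer needed them. Adam10, Adam17 and Hgf were named outside this rule, after their values were seen. Exon lengths and positions came from GENCODE M21 (21909 of 23478 symbols matched), and upstream sequences from RefSeq. Alternatives were DESeq2 1.42.0, limma 3.58.1 with library weights, DESeq2 size factors in edgeR, no filter, the compared groups alone, a replicate block, each library left out in turn, and both libraries that stood apart left out. A gene among those most like Fgfbp1 is not reported here.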

Additional observations from a re-analysis of the deposited data

Results flagged for a closer look

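In 5 of 85 groups of 4 libraries tested, 1 library stood far above the other 3 by Dixon's criterion at 95%, and chance alone flags about 1 group in 20. Macc1 was at 8.06 CPM in Lung shAsns-1 B and at 4.38 to 4.83 CPM in the other 3 libraries of its group. Met was at 443.9 CPM in Lung shRenilla B and at 227.9 to 256 CPM in the others. Dusp6 was high in that same library, at 483.9 CPM against 313.4 to 338.8 CPM. Erbb2 was at 13.1 CPM in Tumor shAsns-2 D and at 6.56 to 7.42 CPM in the others. Ereg was at 11.39 CPM in Lung shAsns-1 D and at 1.21 to 2.89 CPM in the others.

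Differences between sites were called by the interaction contrasts. Of the 10 genes, the contrast of lung minus tumor for shAsns-1 minus shRenilla was 2.37 for Macc1 and 2.27 for Fgfbp1 on the log2 scale. For shAsns-1 minus shAsns-2 it was 1.85 for Macc1, 2.94 for Fgfbp1 and 0.97 for Egfr, the last a call lost without any 1 of 11 of these 16 libraries.

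For pathway genes the shAsns-1 minus shRenilla difference was called more positive in lung-derived than in tumor-derived cells for Adam12 (2.60, edgeR adjusted p = 4.75e-08), St14 (1.74, adjusted p = 0.000416), Plau (1.07, adjusted p = 0.005), Ddr1 (1.07), Nrg1 (1.01) and Rhbdf1 (0.72). It was called more negative for Dusp6 (-1.39, adjusted p = 5e-06), Tgfa (-1.35, adjusted p = 9.59e-07), Spred1 (-1.34), Etv1 (-1.28), Etv5 (-1.23), Rasa1 (-0.96), Pdgfra (-0.81), Socs5 (-0.79), Btc (-0.72), Errfi1 (-0.57), Ephb4 (-0.55) and Map2k1 (-0.45). These contrasts of pathway genes were fitted only as in the main analysis, and the pathway lists were chosen with earlier results known.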

How the results depend on the processing

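Over all comparisons and alternatives, 1770 log2 differences of the 9 tested genes moved by less than the SD between libraries, 63 moved by more, and 0 called values changed sign. The numbers of the 10 genes called moved in the following comparisons, among others, and the cause was not tested. For Lung shAsns-1 minus Lung shRenilla (1 in the main analysis) they were 2 with DESeq2, 3 with limma, 0 with the compared groups alone and 0 to 2 with 1 library left out. For Lung shAsns-2 minus Lung shRenilla (0) limma called 2. For Lung shAsns-1 minus Lung shAsns-2 (3) they were 5 with limma, 1 with no filter, 1 with the compared groups alone and 1 to 3 with 1 library left out. For Lung shRenilla minus Tumor shRenilla (5) they were 8 with limma and 8 without both libraries that stood apart. For Lung shAsns-2 minus Tumor shAsns-2 (8) they were 5 with the compared groups alone and 5 to 7 with 1 library left out. For Tumor shAsns-1 minus Tumor shAsns-2 (5) they were 2 to 5 with 1 library left out. For the shAsns-1 minus shAsns-2 difference between sites (3) they were 5 with limma, 5 without both libraries that stood apart, 2 with no filter, 2 with DESeq2 size factors and 2 to 3 with 1 library left out. For Tumor shAsns-1 minus Tumor shRenilla Met was called as well with limma, with the compared groups alone and without both libraries that stood apart. For the shAsns-1 minus shRenilla difference between sites Egfr was called as well with limma and without both libraries that stood apart. It was also called there without Lung shRenilla B, and Ereg was with DESeq2. Of all 12625 genes, limma called 843 for Lung shAsns-1 minus Lung shRenilla and 1582 for Lung shAsns-2 minus Lung shRenilla. It called 1921 for Lung shAsns-1 minus Lung shAsns-2 and 4622 for Lung shRenilla minus Tumor shRenilla. For the shAsns-1 minus shAsns-2 difference between sites it called 5062. The ratio of Ereg without Lung shAsns-1 D was added after seeing the data.

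With the replicate block, the number of the genes called was 7 in place of 8 for Lung shAsns-2 minus Tumor shAsns-2 and 2 in place of 3 for the shAsns-1 minus shAsns-2 difference between sites, and equal to the main number in the other 10 fits. With no filter, Erbb3 was called in Lung shRenilla minus Tumor shRenilla. With the block, Egfr lost its call in Lung shAsns-2 minus Tumor shAsns-2 and in the shAsns-1 minus shAsns-2 difference between sites. Deviations of libraries with the same letter correlated at -0.41 to 0.46 (median 0.012, 60 pairs) and those with different letters at -0.39 to 0.58 (180 pairs). Pairing by letter was thus not seen in these values. They cannot exclude that a letter marks a shared mouse or batch.

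Counts over all genes moved more. They were 4278 (3438 to 5889 over the alternatives) for Tumor shAsns-1 minus Tumor shRenilla, 26 (1 to 843) for Lung shAsns-1 minus Lung shRenilla, 0 (0 to 1582) for Lung shAsns-2 minus Lung shRenilla, 33 (6 to 1921) for Lung shAsns-1 minus Lung shAsns-2, and 1079 (412 to 4138) for Lung shAsns-1 minus Tumor shAsns-1. Depth limits Erbb3, the tumor levels of Ereg, and Hgf, which lay near or under the limit of 3 counts in most libraries.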
